A study of Medicago truncatula with 24 samples.

Results

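The miR166 family was described here across shoots and split roots of the legume Medicago truncatula. Its members were taken by sequence from tables of small RNA counts. The query was the most abundant counted sequence that held the conserved miR165/miR166 core GGACCAGG, because no miRNA was named in the sources used here. Mature members aligned to it without gaps over 18 nt or more and differed from it at no more than 3 positions. Opposite arms had to pair with a mature member, leaving a 2-nt overhang at the 3′ end, with at most 3 mismatches and with G-U counted as a pair. Of the 427 listed sequences, 343 had counts and 5 met the rule, of which 4 were mature forms and 1 was an opposite arm. Together these 5 held 4.47% of all counts.

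The plants were the A17 genotype, used as the control, and the cra2 mutant of the gene for CRA2, a leucine-rich-repeat receptor kinase known in Medicago as the receptor of CEP signalling peptides. The labels do not give its allele. All were raised in hydroponics on 0.5 mM KNO3, their roots were divided at 3 weeks of age, and they were harvested at 4 weeks. For the last 4 days 1 root compartment, the local one, received 10 mM NH4NO3 (satiety) or 0.05 mM KNO3 (deficit). The other, systemic compartment received no mineral nitrogen in every group, so the supply differed only in the local roots. That the root libraries came from the distant compartment rests on the series' design text. There were 8 groups of 3 libraries, formed by organ, genotype and local supply. The labels do not say whether the 3 libraries of a group came from separate plants, so the p-values measure the spread between these libraries, which may be technical. The CRA2 transcript and organ marker mRNAs were not measured, so the labels were not checked that way. In bulk tissue, fewer cells that make a miRNA and less of it per cell cannot be told apart.

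Plant miR166 is a deeply conserved miRNA that guides cleavage of the mRNAs of HD-ZIP III transcription factors. These factors set the upper side of leaves, maintain the shoot meristem and pattern the xylem, and in Medicago roots miR166 is known to act on lateral root and nodule formation. The arm that pairs with the mature strand in the hairpin is usually discarded as a passenger strand. The HD-ZIP III mRNAs were not measured here.

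The mature members are shown because they differ at few positions, and these positions separate forms that behaved differently. Capitals mark the seed, bases 2 to 8, and positions in substitutions are counted from 1 at the 5′ end of the most abundant form, whose base comes first. The forms are named by their last 4 bases, apart from the form with a changed seed.
CCCC form: tCGGACCAggcttcattcccc
CCTA form: tCGGACCAggcttcattccta
CCTC form: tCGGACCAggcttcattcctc
Changed-seed form: tCGGGCCAggcttcatccccc
Opposite arm: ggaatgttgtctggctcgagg
All 5 were 21 nt long. The CCCC, CCTA and CCTC forms shared the seed CGGACCA and differed only at the 3′ end. The CCTA form carried C20T and C21A, and the CCTC form carried C20T. The remaining mature form carried A5G and T17C, so that its seed read CGGGCCA. The opposite arm had 3 mismatches and 2 G-U pairs against the CCCC form. It pairs in the same way with the CCTA and CCTC forms, whose differing bases lie in the 2-nt overhang. The pairing therefore does not assign the arm to any single form. Just outside the threshold lay another arm, with 4 mismatches and 53198 counts, which differed from the member by T10G.
Arm outside the rule: ggaatgttggctggctcgagg
It made up 38.3% ± 3.0 (SD, n = 12) of the counts of both arms in roots and 23.0% ± 2.88 (SD, n = 12) in shoots.

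Depth differed between organs, with 768323 to 1661422 counts per root library and 1494211 to 3919811 per shoot library. The single most abundant sequence of the table, which is no miR166, held 72.2% ± 2.83 (SD, n = 12) of the counts in roots and 81.8% ± 3.67 (SD, n = 12) in shoots. It moved with organ. Within A17 shoots it was also lower under deficit than under satiety, at 81.5% ± 3.85 against 84.6% ± 0.46, with overlapping libraries (SD, n = 3). In cra2 shoots it was 77.8% ± 4.30 under deficit against 83.5% ± 0.82 under satiety (SD, n = 3). Shares of all counts are therefore also given with this sequence left out of the total. Libraries of the same group differed beyond counting noise (chi-square divided by its degrees of freedom, 26.4 to 476).

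The CCCC form was the dominant member, with 2050262 counts in all and 51354 to 135079 in each library. The CCTA form followed with 160235 counts (2576 to 16647 per library) and the opposite arm with 128708 (2358 to 9065 per library). The CCTC form was rare, with 276 counts in all and 4 to 29 per library. At this depth its shares carry a large counting error, and it was 0.0139% of the CCCC form or less in the mean of either organ. The changed-seed form had 1 count, in A17 shoot satiety replicate 2, and 0 in every other library, which allows up to 3 counts in each. It passed no filter, so 4 of the 5 members were tested in every comparison. Levels below are CPM, counts scaled by TMM-adjusted library size, within roots or within shoots unless stated. A sequence was called when the edgeR quasi-likelihood test gave a Benjamini-Hochberg adjusted p under 0.05 over all sequences tested.

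**Figure D1:**
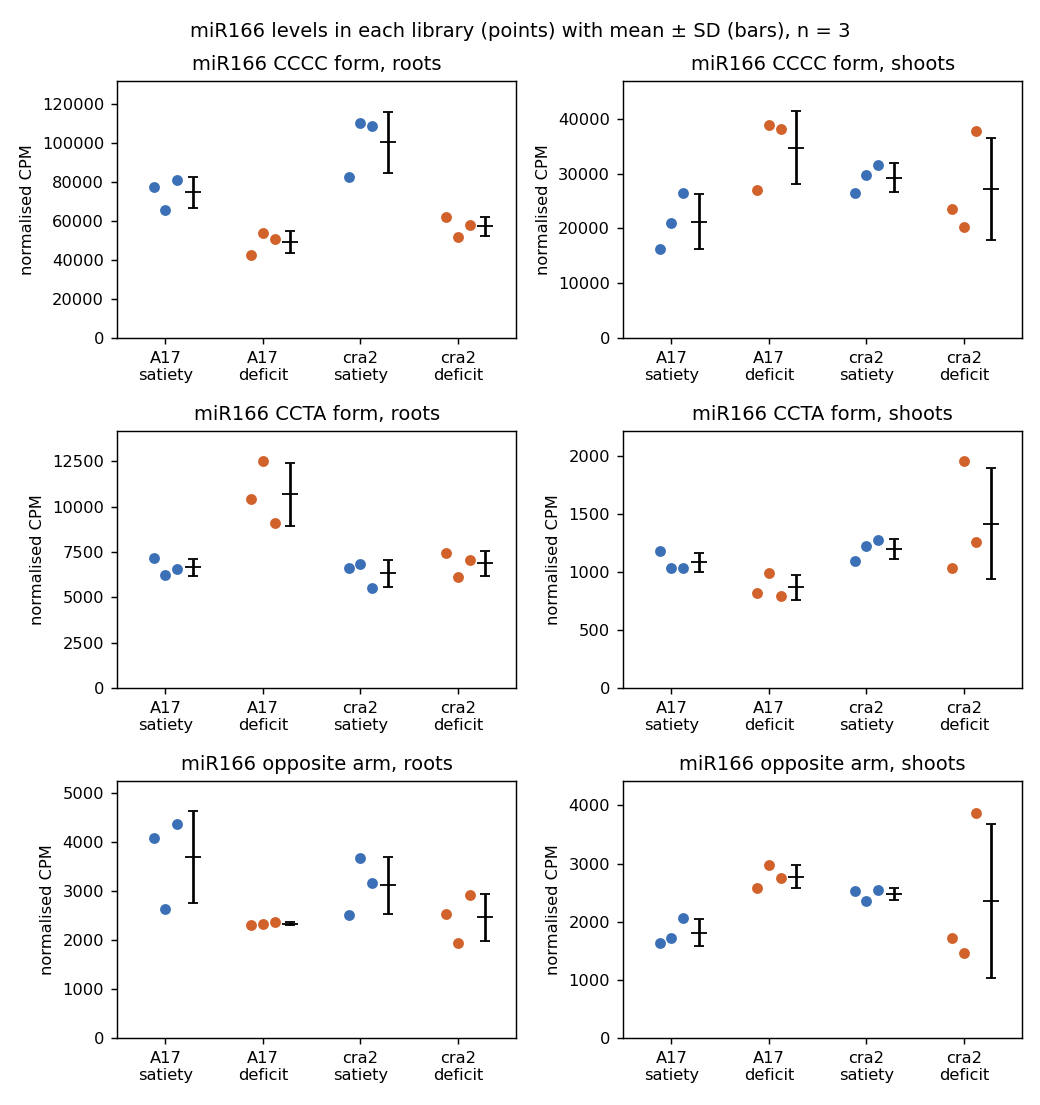
Normalised CPM of the 3 abundant miR166 members in roots (left) and shoots (right), with a point for each library and the mean ± SD (n = 3) beside it; axes start at 0 and roots and shoots were scaled apart. In A17 roots the CCCC form and the opposite arm lie lower under deficit (orange) than under satiety (blue) while the CCTA form lies higher, and in cra2 shoots under deficit replicate 3 stands above the other two for the CCCC form and the opposite arm.

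In A17 roots, where the question was how distant roots respond to the supply of the local ones, local deficit moved the 2 abundant mature forms in opposite directions. The CCCC form fell and the CCTA form rose, and the opposite arm fell with the CCCC form. In roots the CCCC form had 77438, 65733 and 80740 CPM under satiety. Under deficit it had 42618, 53810 and 50969 CPM. All 3 deficit libraries lay below all 3 satiety libraries. The mean went from 74637 ± 7886 to 49132 ± 5818 CPM (SD, n = 3), a log2 change of -0.60 ± 0.16 (SE, edgeR adjusted p = 0.0119). The CCTA form had 7163, 6259 and 6561 CPM under satiety and 10412, 12512 and 9083 CPM under deficit, again without overlap but with the order turned round. Its mean rose 1.60-fold, from 6661 ± 460 to 10669 ± 1729 CPM (SD, n = 3, log2 change 0.68 ± 0.17 SE, edgeR adjusted p = 0.0086). The opposite arm had 4086, 2634 and 4371 CPM under satiety and 2315, 2335 and 2363 CPM under deficit. Its 3 deficit libraries were nearly alike and lay below every satiety library, of which replicate 2 was the lowest. The log2 change was -0.66 ± 0.21 (SE, edgeR adjusted p = 0.0192). The CCTC form went from 11.8 ± 5.14 to 6.88 ± 2.55 CPM (SD, n = 3) and was not called (edgeR adjusted p = 0.176). Thus 3 of 4 members tested were called, 1 higher and 2 lower, where 31.0% of all sequences tested were called.

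The rise of the CCTA form kept its call when any of the 6 libraries was left out, with log2 changes of 0.57 to 0.87 and edgeR adjusted p of 0.00271 to 0.031. The fall of the CCCC form lost it without A17 root deficit replicate 1 (-0.39, adjusted p = 0.129) or 3 (-0.54, adjusted p = 0.0517), and without A17 root satiety replicate 1 (-0.60, adjusted p = 0.0553) or 3 (-0.46, adjusted p = 0.127). The opposite arm lost its call without any of the 3 deficit libraries and without satiety replicate 1 or 3, with log2 changes of -0.63 to -0.45 and edgeR adjusted p of 0.055 to 0.155. Upper-quartile scaling moved the median log2 change of all root sequences to 0.27 from about 0, and raised the share of calls that were higher from 48.1% to 86.7%. The CCCC form then had -0.32 and the opposite arm -0.40, neither called, and over the 10 alternatives edgeR or DESeq2 adjusted p ran from 0.00467 to 0.209 for the CCCC form and from 0.0124 to 0.174 for the arm.

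In cra2 roots the CCCC form also fell under deficit. It had 82216, 110090 and 108460 CPM under satiety and 61826, 51981 and 57783 CPM under deficit, with no overlap. The mean fell by 43.0%, from 100260 ± 15640 to 57197 ± 4949 CPM (SD, n = 3, log2 change -0.81 ± 0.16 SE, edgeR adjusted p = 0.00158). It stayed called without any 1 of the 6 libraries. The CCTA form did not separate the groups, with 6628, 6862 and 5493 CPM under satiety against 7454, 6098 and 7086 CPM under deficit. Its log2 change was 0.12 ± 0.17 (SE, edgeR adjusted p = 0.631). The opposite arm had 2519, 3680 and 3167 CPM under satiety and 2525, 1950 and 2919 CPM under deficit, which overlapped (log2 change -0.34 ± 0.21 SE, edgeR adjusted p = 0.245). In cra2 roots 1 of 4 members was called, where 28.6% of all sequences tested were called. With library totals in place of TMM, the median of all root sequences moved to 0.33, the CCCC change became -0.45 and the call was lost (adjusted p = 0.0655, from 0.000251 to 0.0655 over the 10 alternatives).

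The difference between the root responses of the genotypes was tested as an interaction. For the CCTA form, the response in cra2 was lower than that in A17 by -0.56 ± 0.24 on the log2 scale (SE, unadjusted p = 0.0305, edgeR adjusted p = 0.388), which missed the threshold. For the CCCC form the difference was -0.21 ± 0.23 (SE, edgeR adjusted p = 0.827). In this interaction 0 of 4 members were called by edgeR or DESeq2, with 1 at an unadjusted p under 0.05, and 0% of all sequences tested were called, with 21 at an unadjusted p under 0.05 and 0 by DESeq2. A call in A17 and none in cra2 therefore does not show that the CCTA response differed.

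**Figure D2:**
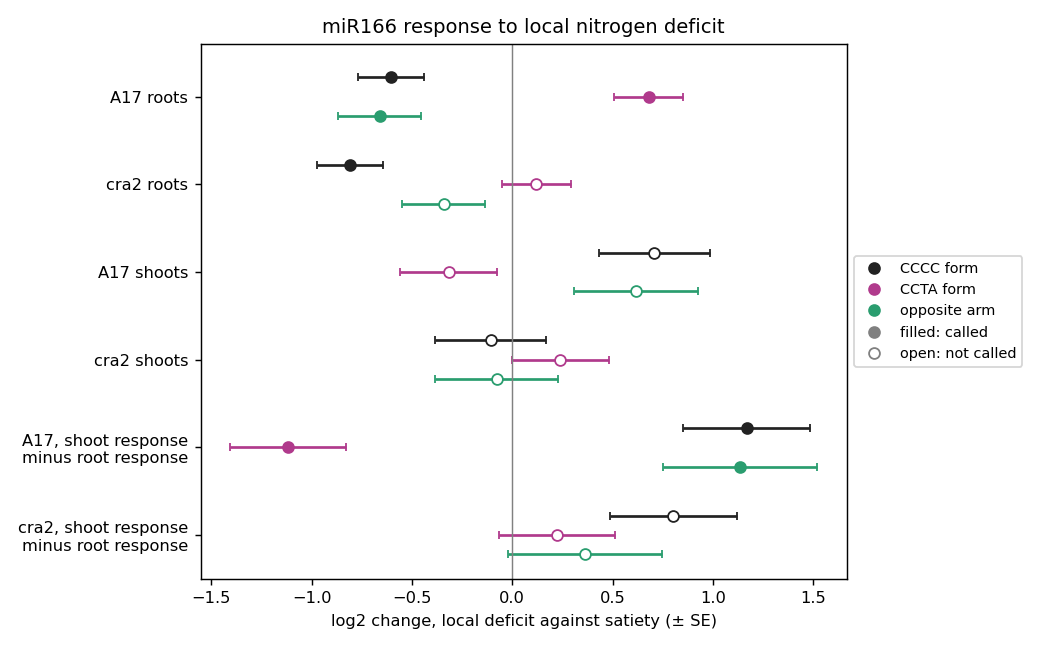
Log2 change from local satiety to local deficit (± SE) of the CCCC form, the CCTA form and the opposite arm in each organ and genotype, and the shoot change minus the root change in the lower rows; filled points were called at an edgeR adjusted p under 0.05. In A17 roots the CCTA form lies at 0.68 and the CCCC form at -0.60, and the shoot-minus-root differences of A17 are called for all 3 members plotted.

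In A17 shoots the 3 abundant members differed the other way round, but no member was called. The CCCC form had 16295, 20994 and 26449 CPM under satiety and 27045, 38936 and 38137 CPM under deficit. The lowest deficit library lay just above the highest satiety library. The log2 change was 0.71 ± 0.28 (SE, edgeR adjusted p = 0.103), from 21246 ± 5082 to 34706 ± 6647 CPM (SD, n = 3). The opposite arm had 1638, 1723 and 2073 CPM under satiety and 2591, 2985 and 2756 CPM under deficit, also without overlap (log2 change 0.62 ± 0.31 SE, edgeR adjusted p = 0.174). The CCTA form had 1179, 1035 and 1035 CPM under satiety and 819, 992 and 795 CPM under deficit, with all deficit libraries lower (log2 change -0.32 ± 0.24 SE, edgeR adjusted p = 0.357). How many of all sequences also separated without overlap was not counted, in this or any other comparison. Of the members, edgeR called 0 of 4, with 1 at an unadjusted p under 0.05. Of all sequences tested it called 0%, with 62 at an unadjusted p under 0.05 and a smallest adjusted p of 0.0525. DESeq2 called 1 member, the CCCC form (0.86, adjusted p = 0.0417), and 33 sequences in all. In a fit of the 6 A17 libraries alone, edgeR called the CCCC form (0.65, adjusted p = 0.015) and the opposite arm (0.56, adjusted p = 0.0301), 2 of 4 members in a fit that called 40% of all sequences tested. The groups of a fit share 1 estimate of the spread, so the cra2 shoot libraries enter the main result. Leaving out only the cra2 shoot deficit libraries was chosen after seeing the data. The CCCC form (0.81, edgeR adjusted p = 0.00563) and the opposite arm (0.72, edgeR adjusted p = 0.00546) were then called, with 65 of 181 sequences.

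In cra2 shoots no member moved beyond the spread. The CCCC form had 26418, 29686 and 31656 CPM under satiety and 23495, 20244 and 37681 CPM under deficit. Replicate 3 of the deficit group was the highest and the other two the lowest, so the satiety libraries lay between them. The opposite arm had the same pattern, with 2528, 2365 and 2553 CPM under satiety and 1721, 1468 and 3871 CPM under deficit. The CCTA form had 1099, 1224 and 1274 CPM under satiety and 1038, 1953 and 1258 CPM under deficit, where replicate 2 was the highest. The log2 changes were -0.11 ± 0.28, -0.08 ± 0.31 and 0.24 ± 0.24 (SE) in that order, with edgeR adjusted p of 0.739 to 0.969. The first 2 changed sign in some alternatives. Both edgeR and DESeq2 called 0 of 4 members, with 0 at an unadjusted p under 0.05, and 0% of all sequences, with 12 at an unadjusted p under 0.05. In the shoot interaction, the CCCC response in cra2 was lower than in A17 by -0.82 ± 0.39 (SE, edgeR adjusted p = 0.186). There edgeR and DESeq2 called 0 of 4 members, with 0 at an unadjusted p under 0.05. Of all sequences, edgeR called 0%, with 51 at an unadjusted p under 0.05, and DESeq2 called 23. Without cra2 shoot deficit replicate 3, edgeR called 2 of 4 members in this interaction and 23.1% of all sequences.

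Between genotypes within roots, the call concerned the CCTA form under deficit. It had 10412, 12512 and 9083 CPM in A17 and 7454, 6098 and 7086 CPM in cra2, so every cra2 library was lower. The mean was 35.5% below that of A17 (log2 difference -0.63 ± 0.17 SE, edgeR adjusted p = 0.00695), and this was 1 of 4 members where 32.7% of all sequences tested were called. The call was lost without A17 root deficit replicate 2 (-0.38, adjusted p = 0.0769) or cra2 root deficit replicate 2 (-0.55, adjusted p = 0.0521). Under satiety the CCTA form differed by -0.07 ± 0.17 (SE, edgeR adjusted p = 0.786). There the CCCC form was higher in every cra2 library, by 0.43 ± 0.16 on the log2 scale (SE, edgeR adjusted p = 0.0566), and missed the threshold. Under satiety edgeR and DESeq2 called 0 of 4 members in roots, with 1 at an unadjusted p under 0.05, where 26.2% of all sequences were called by edgeR and 45 in number by DESeq2. Without cra2 root satiety replicate 1 or 3 edgeR called the CCCC form there (0.62 and 0.47), with 28.3% and 26.1% of all sequences.

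In shoots no member was called between genotypes. Under satiety the CCCC form differed by 0.46 ± 0.28 and the opposite arm by 0.45 ± 0.31 on the log2 scale (SE, edgeR adjusted p = 0.411 and 0.445), higher in cra2. That was 0 of 4 members by edgeR and DESeq2, with 0 at an unadjusted p under 0.05, where 6.88% of all sequences were called. Under deficit the CCTA form was higher in every cra2 library, by 0.70 ± 0.24 (SE, edgeR adjusted p = 0.0723). There edgeR called 0 of 4 members, with 1 at an unadjusted p under 0.05, against 13.2% of all sequences, and DESeq2 called 1 member and 37 sequences in all. Without cra2 shoot deficit replicate 3 edgeR called 3 members in that comparison and 32.7% of all sequences. Without replicate 1 it called 1 member and 18.2% of all sequences.

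To compare organs, all 24 libraries were scaled together, and the levels in this and the next 2 paragraphs are on that scale. The CCTA form was the member with the widest organ contrast. Under satiety it had 5164 ± 257 CPM in A17 roots against 1493 ± 163 in A17 shoots (SD, n = 3), and 4686 ± 563 in cra2 roots against 1441 ± 80.6 in cra2 shoots. Under deficit it had 8378 ± 832 CPM in A17 roots against 1116 ± 182 in A17 shoots, and 5298 ± 510 in cra2 roots against 1902 ± 594 in cra2 shoots. In none of the 4 conditions did shoot and root libraries overlap, but how many of all sequences also separated in this way was not counted. The shoot-against-root log2 differences under satiety were -1.79 ± 0.21 in A17 (SE, edgeR adjusted p = 1.79e-07) and -1.70 ± 0.21 in cra2 (SE, edgeR adjusted p = 2.58e-07). Under deficit they were -2.91 ± 0.22 in A17, a 7.51-fold difference (edgeR adjusted p = 1.73e-10), and -1.48 ± 0.21 in cra2 (edgeR adjusted p = 2.32e-06).

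The CCCC form was lower in shoots under satiety, with 29419 ± 8435 against 57859 ± 5432 CPM in A17 (SD, n = 3, log2 difference -0.98 ± 0.23 SE, edgeR adjusted p = 0.000801). In cra2 it had 35156 ± 2584 against 73909 ± 8370 CPM (SD, n = 3, log2 difference -1.07 ± 0.23 SE, edgeR adjusted p = 0.000316). Under deficit shoots and roots overlapped on this scale, with log2 differences of 0.19 ± 0.22 in A17 (SE, edgeR adjusted p = 0.502) and -0.27 ± 0.22 in cra2 (SE, edgeR adjusted p = 0.356). Under satiety the opposite arm was not called. Its log2 differences were -0.19 ± 0.27 in A17 (SE, edgeR adjusted p = 0.562) and 0.38 ± 0.27 in cra2 (SE, edgeR adjusted p = 0.278). Under deficit it was higher in shoots. It had 3559 ± 352 CPM in A17 shoots against 1849 ± 136 in A17 roots (SD, n = 3, log2 difference 0.94 ± 0.27 SE, edgeR adjusted p = 0.00484). In cra2 it had 3165 ± 1721 against 1892 ± 313 CPM, with overlapping libraries (SD, n = 3, log2 difference 0.74 ± 0.27 SE, edgeR adjusted p = 0.027). The cra2 difference lost its call without cra2 shoot deficit replicate 3 (0.21, adjusted p = 0.472), cra2 root deficit replicate 1 (0.83, adjusted p = 0.0553) or replicate 2 (0.68, adjusted p = 0.109). The scale decides several of these values. With library totals, which moved the median of all sequences to between -0.98 and -0.52 over the 4 organ comparisons, the CCCC form under deficit was lower in shoots by -0.69 ± 0.21 in A17 (SE, edgeR adjusted p = 0.00532) and by -0.97 ± 0.21 in cra2 (SE, edgeR adjusted p = 0.000385). Under satiety its differences became -1.84 in A17 and -1.69 in cra2, both called. On that scale the arm's difference under deficit was 0.05 in A17, not called, and it changed sign in cra2, while under satiety in A17 it was -1.05 (edgeR adjusted p = 0.000868). The CCTC form was lower in A17 shoots than roots under satiety (log2 difference -1.38 ± 0.48 SE, edgeR adjusted p = 0.0204), a call lost without A17 root satiety replicate 3 (-1.17, adjusted p = 0.0808) or A17 shoot satiety replicate 2 (-1.01, adjusted p = 0.0971). The call rests on 10, 4 and 11 counts in shoots against 16, 11 and 29 in roots. As a percent of the CCCC form it was 0.0123% ± 0.0066 in these shoots and 0.0155% ± 0.0054 in these roots (SD, n = 3). Of 4 members tested, 3 were called in A17 under satiety (49.5% of all sequences), 2 in A17 under deficit (56.0%), 2 in cra2 under satiety (46.0%) and 2 in cra2 under deficit (48.5%).

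The order of the 8 groups differed between the 2 abundant mature forms. For the CCCC form, cra2 root satiety came first and A17 root satiety second, each clear of the group below it. The other 6 groups ran from A17 shoot deficit (44383 ± 8426 CPM) down to A17 shoot satiety (29419 ± 8435 CPM, SD, n = 3), and each overlapped the next. For the CCTA form A17 root deficit stood first, clear of the next group. A17 shoot deficit stood last, clear of cra2 shoot satiety, the group above it. On this scale it overlapped A17 shoot satiety, with its highest library at 1318 CPM and the lowest satiety library at 1317 CPM. For the opposite arm A17 shoot deficit was first and A17 root deficit last, and every group overlapped its neighbour.

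The nitrogen response itself differed between organs in A17, tested in the fit of all 24 libraries. In that fit the falls in A17 roots were not called by themselves, with -0.58 for the CCCC form (edgeR adjusted p = 0.0946) and -0.63 for the opposite arm (edgeR adjusted p = 0.134). The response in shoots minus that in roots was 1.17 ± 0.32 on the log2 scale for the CCCC form (SE, edgeR adjusted p = 0.00998). It was -1.12 ± 0.29 for the CCTA form (SE, edgeR adjusted p = 0.00885) and 1.14 ± 0.38 for the opposite arm (SE, edgeR adjusted p = 0.0314). The CCTC form gave 1.17 ± 0.69 and was not called (SE, edgeR adjusted p = 0.216). Thus 3 of 4 members were called, where 27.0% of all sequences tested were called. Taken over every sequence tested, the median difference was -0.31 under TMM and -0.01 under relative-log-expression scaling, and the share of calls with a positive difference was 31.5% and 56.1%, respectively. The CCCC call stood in all 9 alternatives and in all 12 fits that left out 1 library. The CCTA call was lost without A17 root deficit replicate 2 (-0.75, adjusted p = 0.0754) or A17 root satiety replicate 3 (-0.83, adjusted p = 0.069). It was also lost without a filter (-0.68), without the most abundant sequence (-0.69) and in a fit of the compared libraries alone (-0.67), each over 1.5 times smaller than the value above. The arm lost its call without A17 shoot deficit replicate 1 (1.03, adjusted p = 0.0605) or 2 (1.04, adjusted p = 0.0694), and without A17 shoot satiety replicate 1 (1.01, adjusted p = 0.0908) or 2 (0.95, adjusted p = 0.0994). It was also lost with upper-quartile scaling (1.06, adjusted p = 0.0565). In cra2 the same difference was 0.80 ± 0.32 for the CCCC form (SE, edgeR adjusted p = 0.272). It was 0.22 ± 0.29 for the CCTA form (SE, edgeR adjusted p = 0.782). In cra2 edgeR and DESeq2 called 0 of 4 members, with 1 at an unadjusted p under 0.05, where 0.500% of all sequences were called by edgeR and 4 in number by DESeq2.

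**Figure D3:**
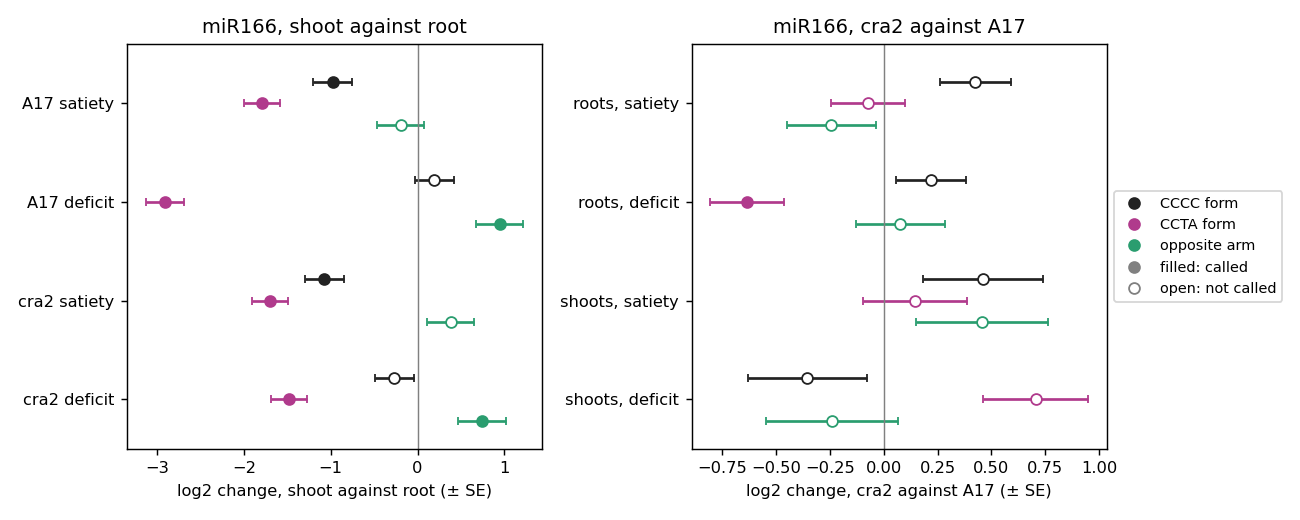
Log2 differences (± SE) of the CCCC form, the CCTA form and the opposite arm, shoot against root in each genotype and supply (left) and cra2 against A17 in each organ and supply (right, on a narrower scale); filled points were called at an edgeR adjusted p under 0.05. The CCTA form lies below 0 in all 4 organ comparisons, lowest in A17 under deficit at -2.91, and the filled point among the genotype comparisons is the CCTA form in roots under deficit.

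Shares within the family need no scaling between libraries. They were compared by exact two-sided permutation tests that kept the other factors as strata, with p-values adjusted over 15 share tests. The minor mature forms, nearly all of them the CCTA form, made up 8.48%, 8.70% and 7.53% of mature miR166 counts in A17 roots under satiety and 19.6%, 18.9% and 15.1% under deficit. In cra2 roots they made up 7.47%, 5.88% and 4.83% under satiety and 10.8%, 10.5% and 10.9% under deficit. Every deficit library of roots lay above every satiety library of either genotype. Over both genotypes the share was 14.3% ± 4.20 under deficit and 7.15% ± 1.51 under satiety (SD, n = 6), a difference of 7.16 percentage points (exact permutation p = 0.005, the smallest it can give, adjusted p = 0.0125). It was lower in cra2 than in A17 roots, at 8.40% ± 2.70 against 13.1% ± 5.51 (SD, n = 6, -4.66 percentage points, exact permutation adjusted p = 0.0125).

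In shoots the minor forms held less of the mature counts, with 4.24% ± 1.87 against 10.7% ± 4.80 in roots (SD, n = 12, -6.49 percentage points, exact permutation p = 1.25e-05, the smallest it can give, adjusted p = 6.25e-05). A17 shoots had 6.76%, 4.71% and 3.78% under satiety and 2.94%, 2.50% and 2.06% under deficit. Every A17 deficit library was below every A17 satiety library, the reverse of roots. In cra2 shoots the satiety libraries were nearly alike at 4.01%, 3.97% and 3.88%. The deficit libraries spread over 4.24%, 8.81% and 3.25%, with replicate 2 far above the others. Over both genotypes the shoot difference was -0.55 percentage points (exact permutation adjusted p = 0.691, n = 6 per supply).

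The opposite arm held 7.45% ± 0.93 of all miR166 counts in shoots and 3.65% ± 0.69 in roots (SD, n = 12), with no overlap between the organs. The difference was 3.80 percentage points (exact permutation p = 1.25e-05, the smallest it can give, adjusted p = 6.25e-05). It ran the same way in all 4 combinations of genotype and supply. In roots the arm had a mean share of 4.30% ± 0.67 in A17 under satiety, 3.79% ± 0.39 in A17 under deficit, 2.84% ± 0.19 in cra2 under satiety and 3.69% ± 0.55 in cra2 under deficit (SD, n = 3). The genotype difference in roots was -0.78 percentage points (exact permutation adjusted p = 0.108), and it passed the threshold without cra2 root deficit replicate 3 (-0.94, adjusted p = 0.0281). The share of the arm by supply did not pass the test in either organ.

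**Figure D4:**
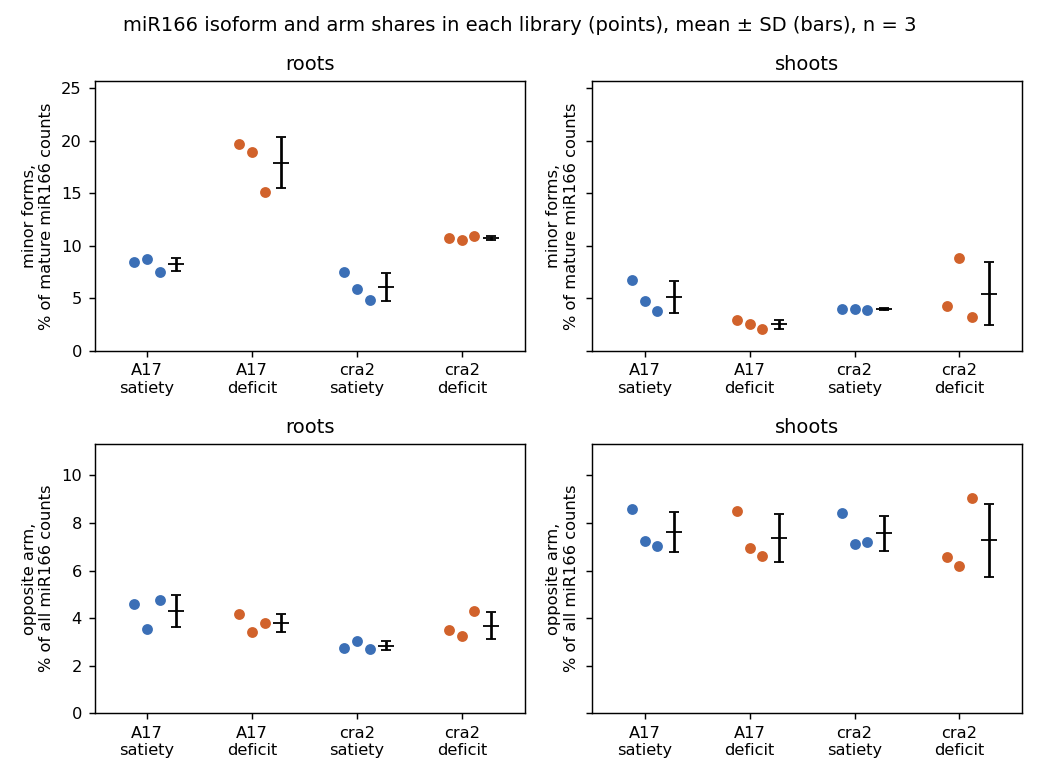
Share of mature miR166 counts held by the minor forms (top) and share of all miR166 counts held by the opposite arm (bottom) in each library (points), with mean ± SD (n = 3) beside them, for roots (left) and shoots (right) on 1 axis per row. The minor forms reach 15.1% to 19.6% in A17 roots under deficit, and the opposite arm lies at 2.70% to 4.77% in roots and 6.20% to 9.04% in shoots.

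Of all counts in a library, the CCCC form held 6.92% ± 1.62 in roots and 2.80% ± 0.73 in shoots (SD, n = 12), without overlap (exact permutation adjusted p = 6.25e-05). With the most abundant sequence left out of the total, the organ difference was -9.50 percentage points (exact permutation adjusted p = 0.000187) in place of -4.11. In roots its share was lower under deficit than under satiety, at 5.77% ± 1.14 against 8.06% ± 1.17 (SD, n = 6, -2.29 percentage points, exact permutation adjusted p = 0.0125). Without that sequence in the total the difference was -8.51 percentage points (exact permutation adjusted p = 0.0125). It was 1.60 percentage points higher in cra2 than in A17 roots (exact permutation adjusted p = 0.0214), a call lost without cra2 root satiety replicate 1 (1.63), 2 (1.52) or 3 (1.64), each with an adjusted p of 0.0536. Without the most abundant sequence in the total the genotype difference was 3.61 percentage points (exact permutation adjusted p = 0.0429). In shoots the difference with deficit was 0.84 percentage points (exact permutation p = 0.035, adjusted p = 0.0656, n = 6 per supply). It passed the threshold without A17 shoot deficit replicate 1 (1.05, adjusted p = 0.0281) or cra2 shoot deficit replicate 1 (0.97, adjusted p = 0.0375). With the most abundant sequence left out of the total it was 1.04 percentage points with an adjusted p of 0.675.

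Correlations of log2 CPM across libraries are given as a description, since libraries of a group share their condition and organ. Within roots the CCCC and CCTA forms ran against each other (Pearson r = -0.63, n = 12), while the CCCC form and the opposite arm ran together (r = 0.70). Within shoots the values were -0.35 and 0.89 (n = 12). Over all 24 libraries, the CCCC form had r = 0.89 with the arm outside the rule, but r = 0.19 with the member arm. That contrast was much smaller within organs. There the arm outside the rule had r = 0.82 in roots and 0.91 in shoots, beside 0.70 and 0.89 for the member arm. Of the 196 sequences compared over the 24 libraries, the 5 most like the CCCC form included that arm at the third place, and the other four are shown as the sequences with the closest pattern. This ranking pooled both organs, and the rankings within roots and within shoots held some other sequences. The sequences shown are not named in the sources used here.
Sequence with r of 0.92: cctcgttccatacatcatctag
Sequence with r of 0.91: tacatgtcgctctcacctgaa
Sequence with r of 0.87: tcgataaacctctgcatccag
Sequence with r of 0.85: ttacctattccaccaattccat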

How the data were processed

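Per the labels' protocols, total RNA came from a miRNeasy kit and NEXTFLEX v3 small RNA libraries were size-selected. Per the submitters' processing notes cutadapt was used. Its version, the aligner, the counter and how reads of near-identical sequences were assigned are given by no source used here. The authors deposited raw counts, 1 whole number for each sequence and library, and these were used unchanged. The members and lists were chosen with earlier results of these data known. Members were found by ungapped alignment. A list of other development miRNAs was not applied, because no miRNA table was used here to name them, and genome positions are not given.

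Groups came from the sample titles. Counts were tested with edgeR 4.0.16 (quasi-likelihood, TMM scaling, filterByExpr with a minimum count of 10) in R 4.3.3, on the 12 libraries of an organ for supply and genotype and on all 24 for organ, with Benjamini-Hochberg adjustment over all sequences tested and a threshold of 0.05. The script was tested on simulated data. Log2 changes depend on the scaling. Shares were tested by exact permutation within strata. DESeq2 1.42.0, other scalings and filters, a replicate block, summed isoforms, a limit of 1 mismatch and leaving out each library were alternatives. The sequences whose pattern was most like the CCCC form were taken by Pearson r on log2 CPM with a prior count of 2, the first 5 over all libraries.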

Additional observations from a re-analysis of the deposited data

Results flagged for a closer look

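In A17 the nitrogen response differed between shoots and roots for 3 members, by a test of the difference itself (edgeR interaction, in the fit of all 24 libraries). The shoot response minus the root response was 1.17 on the log2 scale for the CCCC form, -1.12 for the CCTA form and 1.14 for the opposite arm. In a fit of the 12 A17 libraries alone the CCTA difference was -0.67 and was not called (adjusted p = 0.0637). The cause was not tested.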

How the results depend on the processing

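Each comparison was recomputed with 1 choice changed at a time. Of the 4 members tested, 3 were called in A17 roots by supply (52 of 168 sequences). The count fell to 1 with upper-quartile scaling (45 of 168), all 24 libraries in 1 fit (19 of 200) or isoforms summed (49 of 166). It was also 1 with at most 1 mismatch, and these last 2 leave fewer members. With library totals the opposite arm lost its call (-0.58, edgeR adjusted p = 0.0707), where 35 of 168 sequences were called. The count ranged from 1 to 3 when 1 library was left out. In cra2 roots the count was 0 with library totals (30 of 168). Between genotypes under satiety in roots it was 1 with relative-log-expression scaling (44 of 168), upper-quartile scaling (47 of 168) or the compared libraries alone (43 of 158). It was 0 to 1 there with 1 library left out. Under deficit in roots it was 0 with library totals (50 of 168), isoforms summed (53 of 166) or at most 1 mismatch, and 0 to 1 with 1 library left out. In A17 shoots by supply it was 1 with DESeq2 (33 of 189), 2 with the compared libraries alone (70 of 175) and 2 without the cra2 shoot deficit libraries (65 of 181). Between genotypes under deficit in shoots it was 1 with library totals (53 of 189) or DESeq2 (37 of 189). It was also 1 with a filter of 10 CPM in 3 libraries (20 of 138) or all 24 libraries (52 of 200). With 1 library left out it was 0 to 3 there, and 0 to 2 in the shoot interaction. Shoot against root, isoforms summed gave 1 in A17 under satiety (96 of 198) and deficit (111 of 198). It also gave 1 in cra2 under satiety (92 of 198) and deficit (97 of 198). With at most 1 mismatch the count was 0 in A17 under deficit, 1 in the A17 organ difference of the response, 1 in cra2 under satiety and 0 in cra2 under deficit. The cra2 deficit count was also 1 with upper-quartile scaling (96 of 200), no filter (87 of 343) or the compared libraries alone (59 of 165), and 1 to 2 with 1 library left out.

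Changes near 0 switched sign. The opposite arm became 0.0075 in cra2 roots by supply and -0.0013 in cra2 under deficit between organs, both with library totals. In cra2 shoots by supply it became 0.0651 (relative-log-expression scaling and DESeq2), 0.261 (library totals), 0.0245 (no filter), 0.0205 (compared libraries alone), 0.0219 (without the most abundant sequence), 0.1002 (10 CPM filter) and 0.0817 (all 24 libraries), and -0.56 to 0.23 with 1 library left out. The CCCC form there became 0.0269 (relative-log-expression scaling and DESeq2), 0.269 (library totals), 0.0622 (10 CPM filter) and 0.0575 (all 24 libraries), and -0.34 to 0.14 with 1 library left out.

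With at most 1 mismatch the CCTA form leaves the family, and the minor form share differences became -0.0008 (organ), 0.0009 (supply, roots), 0.0008 (supply, shoots) and -0.0019 (genotype, roots) percentage points. The opposite arm share between genotypes in shoots became 0.15 with the arm of 4 mismatches added. With 1 library left out, the arm share ranged from -0.0223 to 0.287 for supply in roots, -0.51 to 0.22 for genotype in shoots and -0.97 to -0.67 for genotype in roots, and the CCCC share from 0.58 to 1.05 for supply in shoots and 1.30 to 1.85 for genotype in roots. The alternatives with the 4-mismatch arm, with the CCTA form as the only minor form and without the cra2 shoot deficit libraries were chosen after seeing the data.

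Libraries with the same replicate number did not all deviate together. In roots the correlation of their deviations was -0.13 to 0.35, with a median of 0.12 and 11 of 18 pairs above 0.1, against a median of -0.04 and 5 of 36 for different numbers. In shoots it was -0.39 to 0.34, with a median of -0.10 and 3 of 18 above 0.1, against a median of 0.05 and 14 of 36 for different numbers. Over all 24 libraries 32 of 84 pairs with the same number lay above 0.1, against 39 of 168 for different numbers. Not every pair passed 0.1 and the labels give the numbers no meaning, so they were not taken to pair the libraries. Deviations were taken from each group's own mean, which pushes the values for different numbers towards the opposite sign. They are therefore no independent reference for the values of equal numbers. The rule of 0.1 cannot exclude a pairing, and roots hold a hint of shared deviation. The labels also do not say whether shoot and root libraries with the same number came from the same plants. With a replicate block, no count of members called by edgeR changed. The share tests in roots then reached an adjusted p of 0.0586 at the same differences of -2.29 and 1.60 for the CCCC form and 7.16 and -4.66 percentage points for the minor forms, since the block allows fewer relabellings. Leaving the most abundant sequence out of the total moved the CCCC share differences by over 1.5 times for organ, both root contrasts and genotype in shoots, with no call changed. Depth limits the CCTC and changed-seed forms.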
